A study of Mus musculus with 12 samples.

Results

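Flight was compared with ground in the quadriceps, the large extensor of the knee at the front of the thigh. The libraries were taken by the muscle in their labels, which gave 6 of the 12 in the series, 3 from Ground mice (M02, M03 and M08) and 3 from Flight mice (M11, M12 and M20). All genes of these libraries were examined, together with the quadriceps tables of skipped exons (SE) and mutually exclusive exons (MXE). The other 6 libraries came from the gastrocnemius of the same mice and were used here only where the muscles are set side by side. All mice were female and 30 weeks old at the start, and all received saline every 2 weeks as the control arm of a drug study. Flight mice spent 9 weeks aboard the International Space Station, and Ground mice spent the same time at Kennedy Space Center in the same type of housing. Each arm of the study held 10 mice, of which 3 were sequenced. The labels give the strain as C57BL/6 and the study's methods as BALB/c. Muscles of both arms were dissected from carcasses that had been frozen and then thawed on ice, and each library was made from a whole piece of muscle, so fewer cells of a type and less RNA per cell cannot be told apart.

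A muscle that bears no weight loses fiber size, as protein breakdown by ubiquitin ligases and proteasomes outpaces synthesis on ribosomes. Slow fibers rely on mitochondria and fatty acids, and fast fibers on glycogen and glycolysis. The mouse quadriceps consists mainly of fast fibers. The contractile unit, the sarcomere, is built on the giant proteins titin and nebulin, and its calcium switch includes troponin T. The transcripts of all of these are alternatively spliced, so a sarcomere can be altered by exon choice at a constant amount of RNA.

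The libraries carried the RNA of fast muscle. Of the 12 genes of the skeletal muscle list all were tested, and their summed TPM, each transcript's length-corrected share of a library, ran from 54760 to 59070 in Ground and from 54070 to 58720 in Flight. Summed TPM of 16 fast fiber genes was 141300 to 160800 over the 6 libraries, against 1246 to 2750 for 14 slow fiber genes. Pearson's r across genes was 0.95 to 0.979 within a group and 0.946 to 0.973 between the groups, so the groups did not stand apart as a whole. The library of Ground mouse M08 listed the fewest genes above 0, at 18172 against 20291 to 20889 in the others, but its 9072 genes above 5 TPM lay inside the range of 8951 to 9273. TPM carries no read count, and only the 3 values of each group show how precise a mean is.

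Of 10481 genes tested, 3 passed an adjusted p of 0.05 with a change over 1.5-fold in the limma fit, which is 0.0286%. They were the protein-coding gene Atp5g2 and the pseudogenes Gm43587 and Rpl31-ps8. Atp5g2 encodes a form of subunit c, the rotating ring of the mitochondrial ATP synthase. Its TPM was 35.0, 43.5 and 33.3 in Ground and 14.4, 15.3 and 14.3 in Flight. Every Flight mouse thus lay under every Ground mouse, and the Flight values were close together. Atp5g2 fell by 1.28 (SE 0.119) on the log2(TPM + 1) scale, with an adjusted p of 0.0445. In the gastrocnemius of the same mice its mean TPM was 19.8 in Ground and 5.57 in Flight, a log2 difference of -1.81. Atp5g3, another gene for the same subunit that is named here after its values were seen, had 498, 432 and 420 TPM in Ground and 396, 344 and 379 in Flight, a log2 difference of -0.27. The call of Atp5g2 was lost when any 1 of the 6 libraries was left out, while the log2 fold change of Atp5g2 stayed between -1.35 and -1.16.

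Both pseudogenes share most or all of their sequence with other genes, and Atp5g2 shares part of its own. Of the 31-base words of Atp5g2, 40.2% also occur in other annotated transcripts, and 37.5% in those of Gm10175. The TPM of Atp5g2 and Gm10175 was not summed. Gm43587 is a processed pseudogene at chr3:112766809-112767012 (GRCm38, minus strand), and 98.3% of its 31-base words also occur in other annotated transcripts. It had 14.1, 11.7 and 15.6 TPM in Ground and was listed at 0 in all 3 Flight libraries, with an adjusted p of 0.00105. Rpl31-ps8, at chr15:90764279-90764656 on the minus strand, shares all of its 31-base words with the ribosomal protein gene Rpl31. It was listed at or next to 0 in the Ground libraries and had 29.5, 58.5 and 15 TPM in Flight, with an adjusted p of 0.0445 in limma. In the quadriceps, both pseudogenes thus reached the filter of 5 TPM only through the group where they were high. A group listed at or next to 0 has almost no spread, so these adjusted p are not read as support for a difference. Rpl31 and Rpl31-ps8 together came to 463 ± 13.8 TPM in Ground and 456 ± 21.4 in Flight (SD, n = 3 each), so the sum differed by less than the spread between mice. Reads of 50 bases can fit a gene and its copy equally well, and how far their assignment enters these calls was not tested.

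The clearest case of a shared total was Pgk1, which encodes the glycolytic enzyme phosphoglycerate kinase. Pgk1 had 319, 347 and 328 TPM in Ground and 245, 193 and 213 in Flight. Its processed pseudogene Gm5537, at chr3:58102996-58104247 which shares all of its 31-base words with Pgk1, had 200, 198 and 180 TPM in Ground and 308, 295 and 346 in Flight. Each differed without overlap between the groups, but in opposite directions. Their sum was 524 ± 19.1 TPM in Ground and 534 ± 39.4 in Flight. Rps15a and its pseudogene Rps15a-ps5 were different, because their sum also separated the groups, with 127, 141 and 129 TPM in Ground and 77.9, 78.6 and 78.3 in Flight. This pair is also less alike in sequence, as 63.6% of the 31-base words of Rps15a-ps5 occur in Rps15a. These pairs were picked after the values had been seen, and the sums were not tested.

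**Figure D1:**
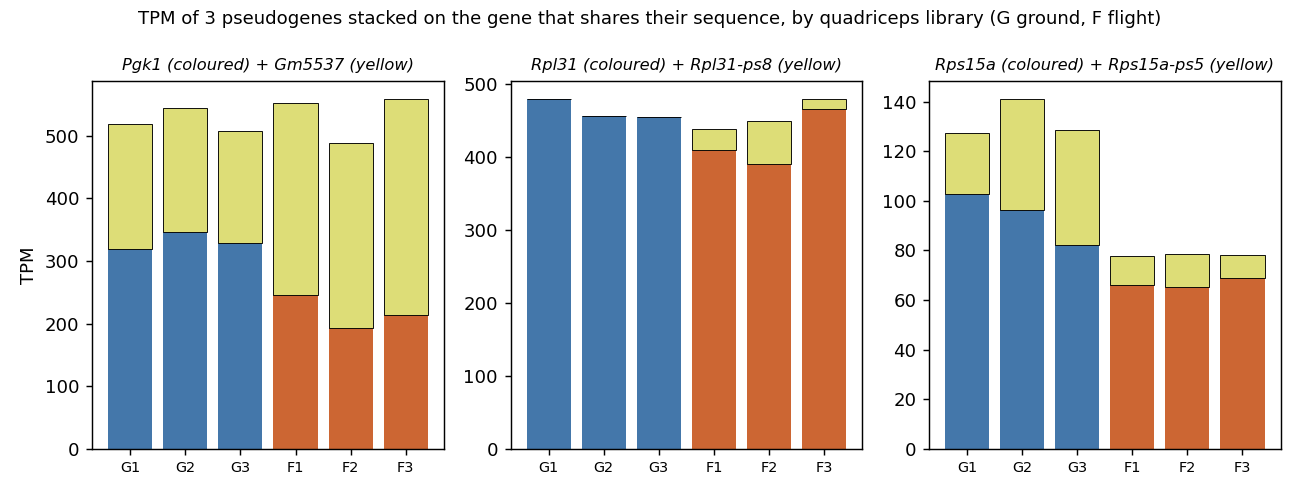
Stacked bars give TPM in each of the 6 quadriceps libraries. The parent gene is coloured, blue for Ground and orange for Flight. The pseudogene, which shares all or most of its own sequence with the parent, is yellow. The Pgk1 and Rpl31 stacks have similar heights in both groups while the yellow share is taller in Flight, whereas the Rps15a stack is shorter in every Flight library.

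Beyond these 3 genes no gene passed the adjusted threshold, and the genes that follow are described by unadjusted p from the same fit. An unadjusted p under 0.05 was reached by 593 genes that were higher in Flight (5.66%) and by 543 that were lower (5.18%). The values did not overlap between the groups for 968 genes that were higher in Flight (9.24%) and for 851 that were lower (8.12%). Each count below is set beside these shares. The lists and their members were chosen with earlier results of these data known. A list share above that of all genes is therefore a description and not independent evidence. The 25 genes with the next smallest p and a difference over 1.5-fold had adjusted p from 0.157 to 0.274.

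Among the higher protein-coding genes of those 25, Mpp3, a membrane scaffold protein of the MAGUK family, had 12, 12.6 and 11.3 TPM in Ground and 19.1, 20.4 and 20.4 in Flight. Peg3, an imprinted zinc finger gene expressed from the paternal allele, had 11.1, 12.8 and 9.61 TPM in Ground and 18.5, 26.5 and 25.2 in Flight. Asb2, the substrate receptor of a ubiquitin ligase of muscle, had 222, 205 and 206 TPM in Ground and 284, 367 and 306 in Flight. In all of these the lowest Flight mouse lay above the highest Ground mouse. Nr4a3, a nuclear receptor induced by exercise and adrenergic signals, had 12.2, 9.90 and 8.88 TPM in Ground and 17.4, 30.1 and 29.1 in Flight. Mid1, a microtubule-bound ubiquitin ligase on the X chromosome, had 18, 21.2 and 25.3 TPM in Ground and 40.8, 81.4 and 50.8 in Flight. Glrb, the beta subunit of the glycine receptor, had 5.34, 4.22 and 3.66 TPM in Ground and 9.32, 8.41 and 9.61 in Flight. The groups did not overlap for these 3 genes either.

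Among the lower genes, Mrps24, a protein of the mitochondrial ribosome, had 35.3, 36.5 and 35.7 TPM in Ground and 24.8, 20.9 and 22.1 in Flight. Agpat2, which makes phosphatidic acid on the way to triglyceride, had 21.3, 12.4 and 12.4 TPM in Ground and 4.77, 4.94 and 4.37 in Flight. The Agpat2 gene overlaps the end of Egfl7 on the opposite strand, and Egfl7 had 67.3, 65.5 and 76.8 TPM in Ground and 88.2, 40.9 and 52.0 in Flight. Mgst1, a membrane-bound glutathione transferase, had 37.7, 29.7 and 20.7 TPM in Ground and 12.8, 11.9 and 11.1 in Flight. Cnih4, a cargo receptor of the early secretory pathway, had 25.8, 26.8 and 33.0 TPM in Ground and 17.5, 17.5 and 18.1 in Flight. The Flight values of Agpat2, Mgst1 and Cnih4 were tightly grouped, and most of their spread was among the Ground mice. Of the remaining genes of the 25, Gm49354, Gm45688, Gm47605, Gm9830 and Hist1h2bn share 88% or more of their 31-base words with another gene, and Gm15501 shares 75.5%.

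**Figure D2:**
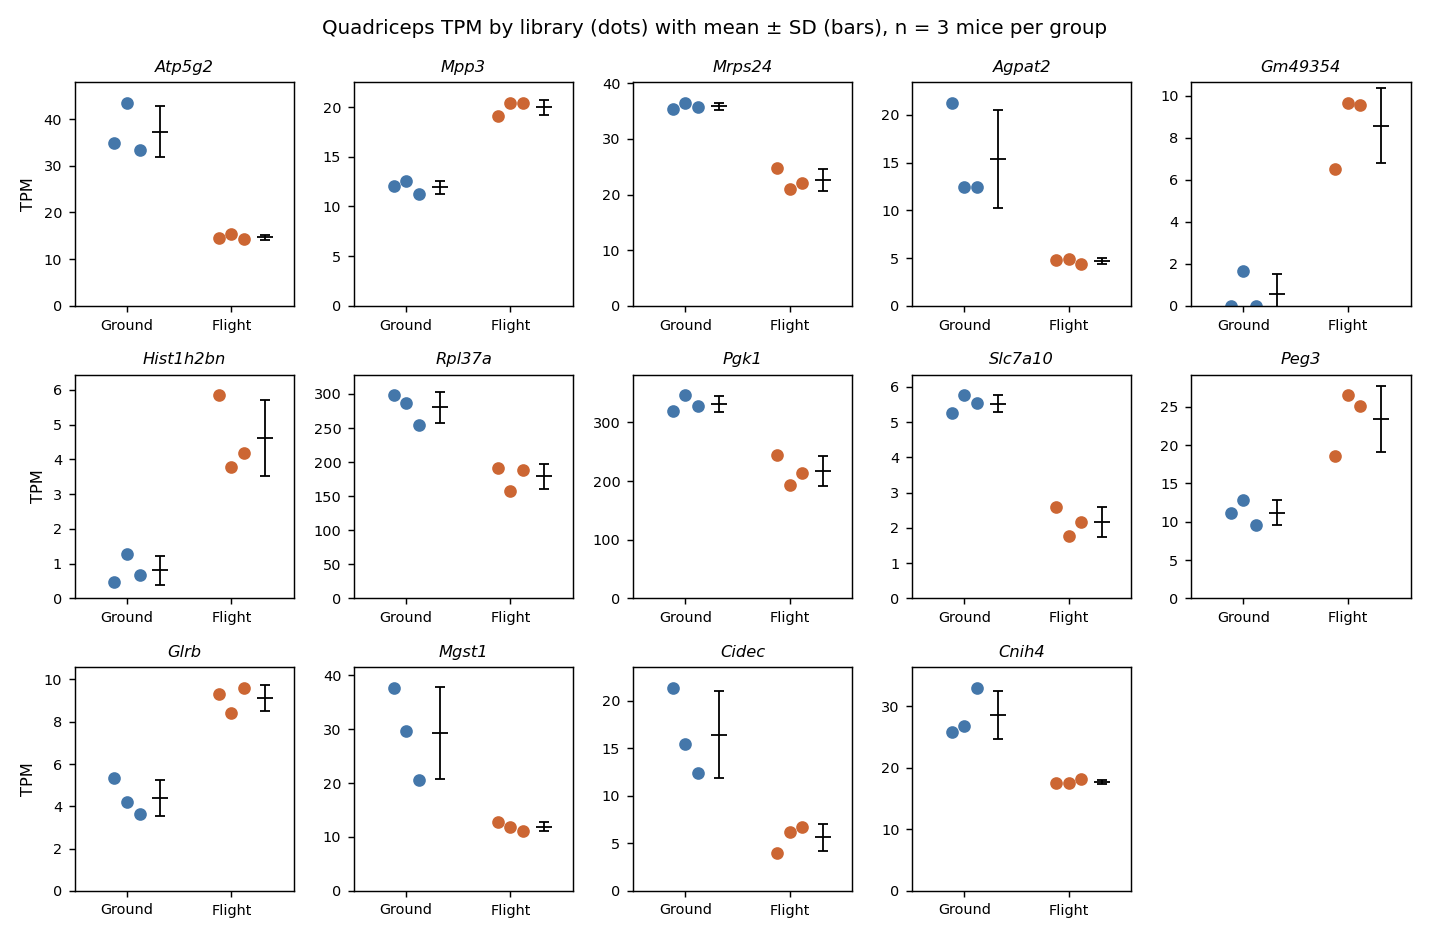
TPM of 14 protein-coding genes, Atp5g2 and the next by p, in each of the 6 quadriceps libraries, with dots for mice and a bar for mean ± SD (n = 3 per group) on axes that start at 0. In the Atp5g2 panel the 3 Flight dots sit near 15 TPM, below all Ground dots.

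Genes of the protein synthesis machinery were lower together. Of 79 cytosolic ribosomal proteins tested, 44 were lower in Flight with an unadjusted p under 0.05 and none was higher, which is 55.7% against the 5.18% of all genes. For 43 the groups did not overlap. None passed the adjusted threshold, the smallest adjusted p being 0.224. The median log2 difference of the 79 was -0.27, against 0.01 for all genes tested. Rpl37a had 298, 287 and 255 TPM in Ground and 191, 158 and 188 in Flight. Rpl24 had 116, 93.7 and 102 TPM in Ground and 60.4, 53.8 and 76.4 in Flight. The most abundant members differed little, as Rps24 had 653, 720 and 737 TPM in Ground and 656, 697 and 654 in Flight. Summed over the list, TPM was 17500 to 18920 in Ground and 14470 to 15780 in Flight, so the sums did not overlap. When 1 library was left out in turn, between 32 and 48 members were lower at this p.

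The respiratory chain showed the same direction for its nuclear genes and not for its mitochondrial ones. Of 80 nuclear genes of oxidative phosphorylation, 37 were lower with an unadjusted p under 0.05 and none was higher, and 42 did not overlap between groups. Atp5g2 was the 1 member that passed the adjusted threshold. The median log2 difference was -0.22. Members of every complex were among the 37. Ndufb6 of complex I had 122, 136 and 119 TPM in Ground and 94.3, 75.5 and 90.2 in Flight. Sdhd of complex II had 144, 136 and 136 TPM in Ground and 113, 91.7 and 108 in Flight. Uqcrfs1, the iron-sulfur protein of complex III, had 219, 188 and 196 TPM in Ground and 158, 129 and 158 in Flight. For each of these the Flight mouse M12 was the lowest of the 6. Cox7a2 of complex IV had 198, 200 and 218 TPM in Ground and 158, 117 and 144 in Flight. Atp5b, the catalytic beta subunit of the ATP synthase, had 1874, 1795 and 1687 TPM in Ground and 1437, 1340 and 1563 in Flight. Ndufb6, Sdhd and Uqcrfs1 fall outside the naming rule and were chosen after their values were seen, to show each complex. By contrast, none of the 13 protein-coding genes of the mitochondrial genome had an unadjusted limma p under 0.05, and their median log2 difference was 0.08. Without Ground mouse M08, 3 of them were higher at that p. The most abundant of them, mt-Atp6, had 34520, 32900 and 43080 TPM in Ground and 36110, 44230 and 34610 in Flight. Leaving out Ground mouse M02 reduced the 37 nuclear genes to 23, and the other libraries left between 28 and 42.

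Both lists consist of short transcripts, which bears on how they are read. The median transcript length was 628 bases for the ribosomal proteins, with 76 of 79 under 1 kb, and 601 bases for the nuclear respiratory genes, with 71 of 80 under 1 kb. Among all 3948 protein-coding genes tested with transcripts that short, 7.85% were lower at an unadjusted p under 0.05, and 6.16% without those 2 lists. In genes over 4 kb it was 2.59%. The median log2 difference ran from -0.016 in the shortest class to 0.036 in the longest. The part that transcript length plays in the list counts was not tested.

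Genes that burn fat were lower alongside the respiratory chain. Of 28 genes of fatty acid oxidation tested, 11 were lower at an unadjusted p under 0.05, none was higher, and the median log2 difference was -0.25. Fabp3, the fatty acid carrier of muscle, had 345, 302 and 372 TPM in Ground and 184, 253 and 205 in Flight. Acsl1, which activates long-chain fatty acids, had 165, 130 and 159 TPM in Ground and 101, 95 and 108 in Flight. Acaa2, the last enzyme of the beta-oxidation cycle, had 131, 110 and 110 TPM in Ground and 79.2, 76.0 and 90.1 in Flight. None of these overlapped between the groups. Acadm, the medium-chain dehydrogenase and an abundant member, had 318, 260 and 364 TPM in Ground and 268, 326 and 302 in Flight, and so overlapped. Myoglobin (Mb), which stores oxygen in oxidative fibers, had 1454, 1265 and 1204 TPM in Ground and 977, 855 and 847 in Flight. The regulators of this program differed less: of 16 genes of the PGC-1 and ERR list, Esrra and Perm1 were lower and Ppard and Nrf1 were higher at that p, and none was higher without Ground mouse M08, Flight mouse M12 or Flight mouse M20.

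Genes of fat synthesis and of fat cells were also lower. Of 19 lipogenesis genes tested, 6 were lower at an unadjusted p under 0.05 and none was higher, with a median log2 difference of -0.36. Fasn, the fatty acid synthase, had 104, 79.0 and 29.6 TPM in Ground and 26.7, 14.4 and 23 in Flight. Thrsp, which promotes lipogenesis, had 48.0, 35.6 and 13.3 TPM in Ground and 12.5, 9.18 and 10.2 in Flight. In both, Ground mouse M08 lay close to the Flight mice. Scd1, the desaturase and the most abundant of the list, had 348, 244 and 64.9 TPM in Ground and 90.7, 63.8 and 87.2 in Flight, so M08 lay inside the Flight range. Without M08 the count was 11 of 19, and it was 4 without Ground mouse M03 or Flight mouse M12.

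A list of 10 adipocyte genes was assembled from the genes that the study lists as lower in these quadriceps samples, and all 9 of them that were tested were lower at an unadjusted p under 0.05 and did not overlap between groups. The genes were thus chosen on these samples, and the count is not independent evidence of its direction. The lowest adjusted p in it was 0.224, and the median log2 difference was -1.08. Cidec, a lipid droplet protein, had 21.4, 15.5 and 12.4 TPM in Ground and 4.02, 6.21 and 6.68 in Flight. Retn, which encodes the adipokine resistin, had 27.5, 18.9 and 10.8 TPM in Ground and 6.97, 4.33 and 7.70 in Flight. Fabp4, the fatty acid carrier of adipocytes, had 392, 251 and 234 TPM in Ground and 157, 159 and 208 in Flight. Ground mouse M02 was the highest of the 6 libraries for 8 of the 9 genes, and M08 the lowest Ground mouse for 8. The summed TPM of the 9 was 338 to 623 in Ground and 210 to 294 in Flight. The tenth gene, Lgals12, did not reach 5 TPM in any library and was not tested.

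Adipocyte markers outside that list were less uniform. Of 11 tested, 4 were lower at an unadjusted p under 0.05, with a median log2 difference of -0.39, and 2 were lower without Ground mouse M02, Flight mouse M11 or Flight mouse M20. Pck1, which supplies glycerol for triglyceride, had 34.0, 8.05 and 10.4 TPM in Ground and 2.73, 3.56 and 5.26 in Flight. Pparg, the master regulator of fat cells, had 9.17, 7.07 and 5.83 TPM in Ground and 4.97, 6.18 and 6.95 in Flight, which overlapped. Plin4, which coats lipid droplets, had 199, 164 and 150 TPM in Ground and 128, 282 and 235 in Flight. Among markers of other cell types, none of 12 endothelial, 6 macrophage, 10 Schwann cell, 8 fibro-adipogenic progenitor, 7 smooth muscle and pericyte, 5 blood and 3 tendon genes tested had an unadjusted limma p under 0.05. Without Flight mouse M20, 4 of the 5 blood genes were lower at that p, and without Flight mouse M11 so were 2 of the 12 endothelial genes. Of 3 satellite cell genes, Sdc4 was higher, with 11.8, 12.5 and 10.5 TPM in Ground and 15.3, 18.4 and 14.4 in Flight.

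**Figure D3:**
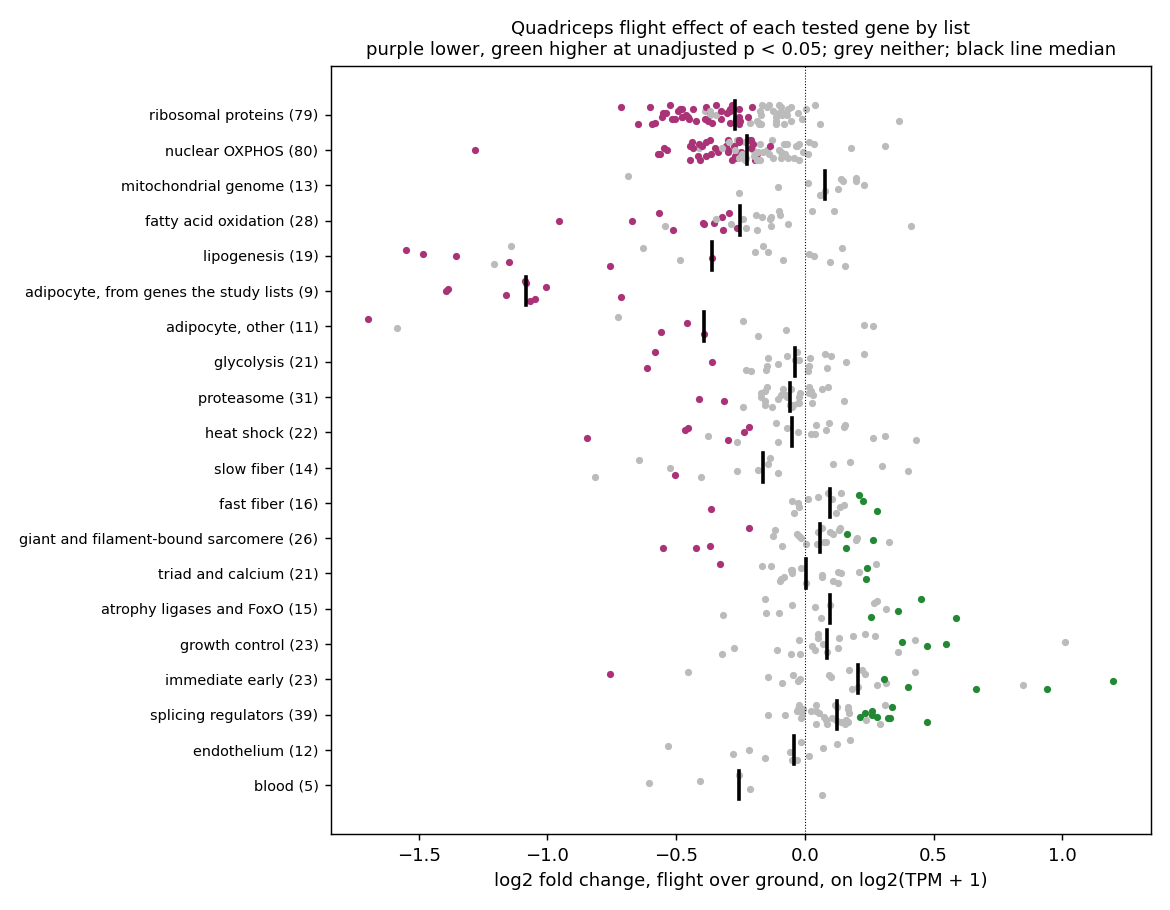
Each dot is a tested gene, placed by its log2 fold change on log2(TPM + 1), Flight over Ground, and grouped by list, with the number of genes in brackets and a black line at the median. Ribosomal proteins, nuclear OXPHOS (oxidative phosphorylation) genes, fatty acid oxidation and both adipocyte lists (genes taken from those the study lists, and others) have their medians left of 0, and the splicing regulators theirs at 0.12.

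Contractile genes of slow fibers overlapped between the groups, with 1 Ground library far below the others. Of 14 tested, only Myoz2 had an unadjusted p under 0.05. Without Ground mouse M02, 9 of the 14 were lower in Flight at that p and the median log2 difference was -0.44, against -0.16 with it. Myh7, the slow myosin heavy chain, outside the naming rule like Pparg and Plin4 above, had 96.8, 293 and 306 TPM in Ground and 275, 234 and 253 in Flight. Tnnt1, the slow troponin T, had 147, 409 and 404 TPM in Ground and 331, 291 and 318 in Flight. In both, M02 was the low library. Of 16 fast fiber genes, Myh4, Tpm1 and Mylk2 were higher and Myh2 was lower at that p, none with an adjusted p under 0.298, and the count of 3 higher genes was 1 or 2 when any 1 library was left out. Myh4, the myosin of the fastest fibers, had 21940, 24870 and 24800 TPM in Ground and 28320, 26020 and 28560 in Flight. Myh2, the myosin of fast oxidative fibers, had 1048, 1011 and 915 TPM in Ground and 796, 714 and 799 in Flight. The groups did not overlap for either, and the fastest myosin stood higher while the more oxidative one stood lower.

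Of 26 structural genes of the sarcomere, 3 were higher and 4 lower at an unadjusted p under 0.05, which became 0 to 2 higher and 2 to 4 lower when 1 library was left out, with none higher without Ground mouse M02. Titin (Ttn) had 7066, 7710 and 7731 TPM in Ground and 8431, 8299 and 8447 in Flight, a log2 difference of 0.16 (SE 0.0672). Nebulin (Neb) had 4645, 5063 and 5058 TPM in Ground and 5277, 5611 and 5353 in Flight, with an unadjusted p of 0.0807. Actn2, the alpha-actinin of the Z-disc, had 308, 258 and 284 TPM in Ground and 235, 213 and 187 in Flight. Of 21 genes of the triad, where excitation meets calcium release, Trdn and Camk2a were higher and Orai1 was lower at that p, and 1 to 4 were higher when 1 library was left out. Ryr1, the calcium release channel, had 1152, 1195 and 1110 TPM in Ground and 1234, 1209 and 1337 in Flight.

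Genes of muscle atrophy were higher in small number. Of 15 atrophy ligases and FoxO genes tested, 4 were higher at an unadjusted p under 0.05 and none was lower (26.7% against 5.66%), which became 2 without Ground mouse M08 or without Flight mouse M20. Besides Asb2 they were Trim63, Foxo4 and Mul1. Trim63, the ligase MuRF1 that marks atrophying muscle, had 141, 151 and 167 TPM in Ground and 173, 234 and 225 in Flight. Foxo4, a FoxO transcription factor, had 88.4, 85.0 and 75.8 TPM in Ground and 94.9, 97.2 and 107 in Flight. Of 31 proteasome genes none was higher at that p and 2 were lower, Psmb4 and Psma3, with 1 to 4 lower when 1 library was left out. Of 23 growth control genes, Mstn, Fst and Smad3 were higher and none was lower, with 2 higher without Ground mouse M08 or Flight mouse M12. Mstn encodes myostatin, a brake on muscle growth, and had 42.5, 37.5 and 35.2 TPM in Ground and 45.3, 59.6 and 46.3 in Flight. Fst encodes follistatin, which binds and blocks myostatin, and had 3.54, 3.88 and 2.96 TPM in Ground and 6.56, 4.53 and 5.57 in Flight. Both the brake and its blocker thus stood higher without overlap, and Smad3, which carries the myostatin signal, had 25.9, 28.1 and 24.8 TPM in Ground and 31.2, 39.8 and 40.2 in Flight.

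**Figure D4:**
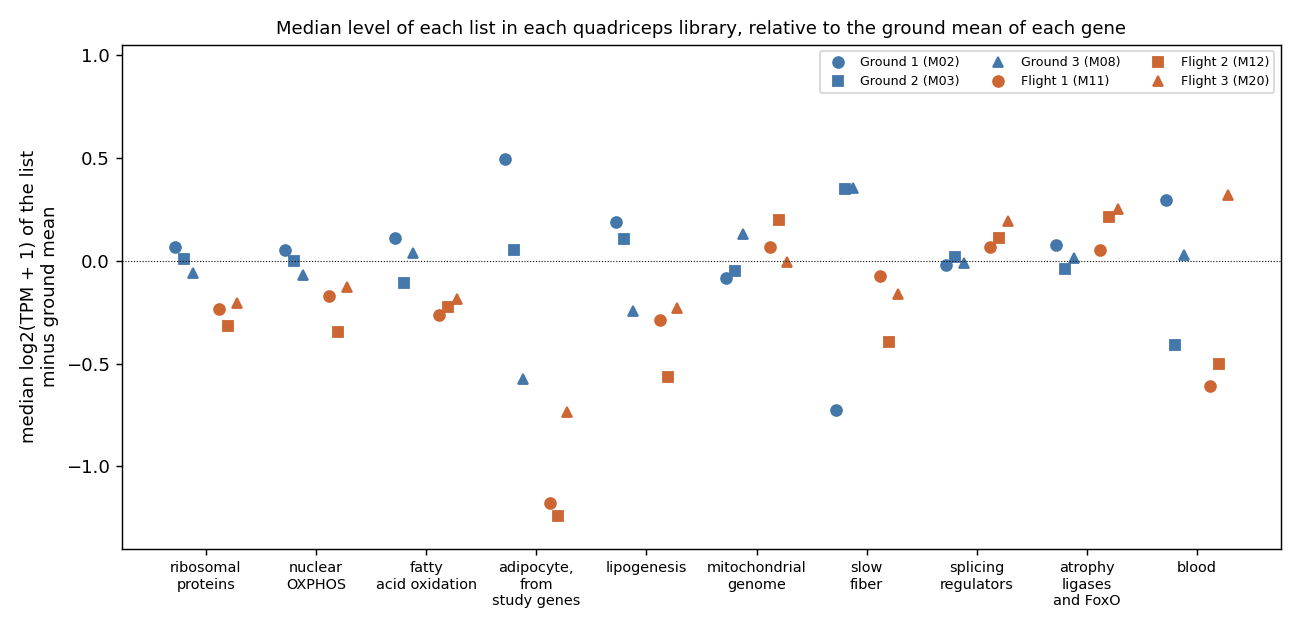
For each list the 6 symbols give the median, over its tested genes, of log2(TPM + 1) minus the Ground mean of that gene, with blue for Ground, orange for Flight and a shape for each mouse. For ribosomal proteins, nuclear OXPHOS and fatty acid oxidation every Ground symbol lies above every Flight symbol, and for slow fiber genes Ground 1 (M02) lies lowest, at -0.72.

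Regulators of splicing were higher as a group of 9. Of 39 tested, 9 were higher at an unadjusted p under 0.05 and none was lower (23.1% against 5.66%), with a median log2 difference of 0.12 and 6 to 10 higher when 1 library was left out. Hnrnpm, an RNA-binding protein of the hnRNP family, had 170, 189 and 171 TPM in Ground and 202, 246 and 221 in Flight. Clk1, a kinase of SR proteins, had 89.6, 95.7 and 86.9 TPM in Ground and 109, 127 and 106 in Flight. Srsf11, an SR-type protein, had 85.2, 89.7 and 79.8 TPM in Ground and 102, 121 and 101 in Flight. All 9 kept the groups apart. Mbnl1, a regulator of muscle exons that is lost in myotonic dystrophy, had 285, 294 and 308 TPM in Ground and 308, 316 and 314 in Flight, with an unadjusted p of 0.216.

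The flight effect was then compared between the muscles in 1 fit of the 12 libraries with the mouse as a block. No gene had an adjusted p under 0.05 for the difference in limma, and 494 of 10481 had an unadjusted p under 0.05. The adipocyte genes taken from the study had a median log2 difference of -1.08 in the quadriceps and -0.17 in the gastrocnemius, but they were chosen for being lower in the quadriceps, so the gap between the muscles is a description with no test. The other adipocyte markers had medians of -0.39 and 0.03, and 1 of 11 had an unadjusted p under 0.05 for the muscle difference. Agpat2 and Glrb were also named for their quadriceps values. Agpat2 had log2 differences of -1.48 in the quadriceps and -0.57 in the gastrocnemius, and Glrb of 0.91 and -0.26. The ribosomal proteins had median differences of -0.27 and -0.26 and the nuclear respiratory genes of -0.22 and -0.26, quadriceps first, and 6 of 79 and 3 of 80 of them had an unadjusted p under 0.05 for the muscle difference. Of the 13 genes of the mitochondrial genome 6 had such a p, with median differences of 0.08 and 0.31, quadriceps first. Both muscles came from the same mice, so the medians are not independent of each other.

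Exon choice was measured by reads that span splice junctions. The quadriceps tables list 2416 events, of which 2062 (1480 SE and 582 MXE) in 1017 genes passed the filters of over 10 mean reads in both groups and no extreme inclusion in every sample. Percent spliced in (PSI) is the share of transcripts that carry the exon or, in an MXE event, the share with the upstream one of the pair. ΔPSI is given in percentage points, with a positive value where the mean was higher in Flight. The 3 values of a group are listed by position without names, so they cannot be matched to mice. The third Ground position stood apart. It held 755720 junction reads against 927513 to 1212086 at the other positions, had no read at all in 79 of the listed events where the others had at most 1 such event, and its PSI differed from the mean of the other Ground positions by a median of 9.42 points, against 5.68 to 6.49 for the others. Calls are therefore counted with and without it, and the p of an event is from all positions unless stated otherwise.

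Flight altered the inclusion of 19 events in 5 genes (0.921% of those tested) at an adjusted p under 0.05 and a ΔPSI over 5 points, by a quasi-binomial model of inclusion and skipping reads. They were 8 events in Neb, 5 in Tnnt3, 4 in Ttn and 1 each in Eif4h and Mbnl1. Inclusion rose in 13 and fell in 6, and in 15 the groups did not overlap. An unadjusted p under 0.05 was reached by 231 events (11.2%). Without overlap, inclusion was higher in Flight in 137 events (6.64%) and lower in 126 (6.11%). Events of a gene share exons and reads and are not independent, and long genes contribute many: Ttn had 271 tested events, Neb 67 and Tnnt3 41. Without the third Ground position only 1 of the 19 stayed past the adjusted threshold, but 18 kept an unadjusted p under 0.05 and all 19 kept their direction. The count also moved when other positions were left out, to 20 without the first Ground position, 10 without the second, and 28, 6 and 11 without the first, the second and the third Flight position. With limma on log ratios, which gave each position of an event the same weight whatever its reads, no event passed. In that fit 160 events had an unadjusted p under 0.05 and the smallest adjusted p was 0.537. Events with many reads were not spared, as a called Tnnt3 event with 15623 to 26959 reads a position also had 0.537.

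Nebulin runs along the thin filament, and its exons encode repeats that bind actin. Near the 3′ end of Neb, an exon of 93 bases at chr2:52156355-52156447 (minus strand, exon 143 of Neb-203), here exon E, was paired in MXE events with similar exons further downstream. Exon G lies at chr2:52153683-52153775 (in Neb-208, which has no coding sequence) and exon H at chr2:52153056-52153148 (exon 148 of Neb-202). The sequences are shown because the choice of exon E over such near copies gave the 3 largest ΔPSI among tested events with over 50 reads at every position. Capitals mark the bases of E that differ from G or H, and in G and H the bases that differ from E.
Neb exon E: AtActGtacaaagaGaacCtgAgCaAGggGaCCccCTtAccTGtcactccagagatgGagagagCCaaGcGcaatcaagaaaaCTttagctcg
Neb exon G: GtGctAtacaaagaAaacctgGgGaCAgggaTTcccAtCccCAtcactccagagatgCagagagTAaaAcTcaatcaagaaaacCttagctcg
Neb exon H: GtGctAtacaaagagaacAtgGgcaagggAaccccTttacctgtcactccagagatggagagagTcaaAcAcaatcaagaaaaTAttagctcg
Exons E and H agree in 87.1% of their bases and E and G in 78.5%, and all have the same length.

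Flight mice used exon E more. Against exon H its PSI was 29.0%, 38.0% and 25.5% in Ground and 72.2%, 66.3% and 60.4% in Flight, from 96 to 141 reads at each position. That ΔPSI of 35.5 points (adjusted p 1.63e-05) was the 1 call that held without the third Ground position, at an adjusted p of 0.0319. Against exon G it was 35.2%, 41.8% and 33.6% in Ground and 72.2%, 63.3% and 65.2% in Flight (adjusted p 0.00224). Against exon F, at chr2:52154570-52154662 and not annotated as an exon in the gene models used, it was 48.3%, 40.4% and 19.3% in Ground and 69.0%, 69.7% and 81.7% in Flight (adjusted p 3.61e-07). Leaving out the third Ground position, the quasi-binomial model gave an adjusted p of 0.066 against exon G and against exon F. No Flight position overlapped a Ground position in these 3 events, which all count the junctions of exon E. Exon H on its own was skipped more, with a PSI of 16.8%, 15.8% and 27.4% in Ground and 7.3%, 5.8% and 8.1% in Flight (adjusted p 0.00224). Exon G against exon I overlapped between the groups, and its unadjusted p was 0.0537 without the third Ground position.

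A second site in Neb lies upstream, where exon D (chr2:52185271-52185375, exon 7 of Neb-210) follows exon C (chr2:52186012-52186116, exon 123 of Neb-202). Both have 105 bases and agree in 38.1% of them, so they are not near copies like E and H. Capitals mark the bases that differ.
Neb exon C: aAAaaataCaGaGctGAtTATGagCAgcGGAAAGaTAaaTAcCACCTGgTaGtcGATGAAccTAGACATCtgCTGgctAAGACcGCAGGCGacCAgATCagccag
Neb exon D: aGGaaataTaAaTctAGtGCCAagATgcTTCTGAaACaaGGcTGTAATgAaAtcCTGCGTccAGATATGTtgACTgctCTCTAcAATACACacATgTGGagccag
Inclusion of exon D fell, with a PSI of 71.0%, 53.2% and 71.9% in Ground and 43.3%, 46.3% and 33.9% in Flight, from 653 to 1122 reads a position (ΔPSI -24.2 points, adjusted p 2.51e-06). In the choice between C and D, the share of C was 6.0%, 11.4% and 5.7% in Ground and 13.7%, 12.6% and 21.2% in Flight (adjusted p 0.00642). Both events count exon D, and both had less of it in Flight. Their adjusted p in the same model without the third Ground position was 0.0773 for exon D and 0.346 for C over D. Further upstream, the choice of exon A (chr2:52251707-52251814) over exon B (chr2:52245281-52245388), of 108 bases each, rose from 75.3%, 65.9% and 70.6% in Ground to 80.0%, 84.4% and 78.8% in Flight (adjusted p 0.00224). All exons of the Neb events have lengths that are multiples of 3.

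Troponin T of fast fibers (Tnnt3) tethers the calcium switch to tropomyosin, and its mutually exclusive exons near the end of the coding sequence are a known difference between adult and developing muscle. They are exon C (chr7:142513665-142513705, plus strand, exon 17 of Tnnt3-218) and exon D (chr7:142514326-142514366, exon 14 of Tnnt3-201), both coding and of 41 bases. They agree in 43.9% of their bases, with 23 that differ, shown in capitals.
Tnnt3 exon C: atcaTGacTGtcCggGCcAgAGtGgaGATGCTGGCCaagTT
Tnnt3 exon D: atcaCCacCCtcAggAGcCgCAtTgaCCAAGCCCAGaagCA
The share of exon C was 51.6%, 53.4% and 52.2% in Ground and 57.7%, 65.6% and 61.1% in Flight, from 15623 to 26959 reads a position. Ground positions were within a few points of each other here, the third included, and all Flight positions were higher, for a ΔPSI of 9.05 points (adjusted p 0.00404, and 0.243 without the third Ground position, with an unadjusted p of 0.00178). The skipped exon events of the same site moved alike, as inclusion of D fell by 7.93 points and inclusion of C rose by 8.54 points. Total Tnnt3 stood at 20870, 22210 and 20600 TPM in Ground and 23370, 24130 and 22750 in Flight, with an unadjusted p of 0.0875.

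The other Tnnt3 site was in the variable 5′ part of the coding sequence. Exon A, of 15 bases at chr7:142504250-142504264 (exon 5 of Tnnt3-201), is shown in capitals between 20 bases of its neighbours.
Tnnt3 exon A: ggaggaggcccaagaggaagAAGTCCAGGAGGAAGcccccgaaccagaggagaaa
Its PSI was 37.0%, 39.1% and 43.3% in Ground and 48.1%, 55.3% and 60.2% in Flight, from 944 to 1540 reads a position (ΔPSI 14.7 points, adjusted p 0.00282). The share of A over the next 15-base exon B (chr7:142505516-142505530) was 30.4%, 30.9% and 33.3% in Ground and 38.7%, 46.8% and 52.6% in Flight (adjusted p 0.00316). Every Flight position lay above every Ground position in both. In the fit without the third Ground position the adjusted p was 0.066 for exon A and 0.0773 for A over B. Another small exon upstream, of 18 bases at chr7:142502740-142502757, had a PSI of 28.9%, 23.7% and 29.7% in Ground and 21.7%, 18.4% and 17.4% in Flight, with an adjusted p of 0.0812.

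Titin is the elastic spring of the sarcomere, and many of its small exons encode the elastic part. In 3 MXE events the upstream exon was used more in Flight. Exon D (chr2:76840233-76840313, minus strand, exon 150 of Ttn-204) against exon F (chr2:76831788-76831874) had the smallest p. Exon A (chr2:76850306-76850380, exon 133 of Ttn-204) was the first exon of the other two. Both are printed in capitals between 20 bases of their neighbours.
Ttn exon A: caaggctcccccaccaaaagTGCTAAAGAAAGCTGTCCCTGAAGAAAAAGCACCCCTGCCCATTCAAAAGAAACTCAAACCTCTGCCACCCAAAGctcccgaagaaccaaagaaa
Ttn exon D: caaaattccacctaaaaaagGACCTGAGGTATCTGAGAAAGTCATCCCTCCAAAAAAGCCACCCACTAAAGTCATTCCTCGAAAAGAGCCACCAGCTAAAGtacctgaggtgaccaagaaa
The share of exon D was 27.3%, 28.6% and 22.3% in Ground and 38.3%, 35.6% and 36.3% in Flight, from 3755 to 6167 reads (ΔPSI 10.7 points, adjusted p 0.00252). The share of exon A over exon C (chr2:76847388-76847471) was 39.2%, 27.1% and 41.2% in Ground and 42.0%, 49.9% and 48.9% in Flight (adjusted p 0.00282). The lowest Flight position of that event lay less than 1 point above the highest Ground position. Against exon B the share of A overlapped between the groups. The adjusted p without the third Ground position was 0.206 for D over F and 0.0858 for A over C. The fourth Ttn event, exon E as an SE event (chr2:76838812-76838895), had higher mean inclusion in Flight, with a ΔPSI of 49.7 points. It rested on 7 to 20 reads a position and ranged from 0% to 100%, so it carries little weight. Over the 271 tested Ttn events 68 had an unadjusted p under 0.05, and 44 were higher and 22 lower in Flight without overlap.

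Eif4h encodes a helper of the translation initiation helicase. Its alternative exon of 60 bases (chr5:134624441-134624500, minus strand, exon 5 of Eif4h-205, coding) is shown in capitals with 20 bases of each neighbour.
Eif4h exon: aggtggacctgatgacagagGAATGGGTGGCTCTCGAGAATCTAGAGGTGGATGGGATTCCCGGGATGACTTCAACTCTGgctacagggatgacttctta
Its inclusion fell from 35.4%, 28.3% and 38.0% in Ground to 11.7%, 13.6% and 18.1% in Flight, from 85 to 136 reads a position (ΔPSI -19.4 points, adjusted p 0.00648, and 0.126 without the third Ground position). The groups were well apart, with the highest Flight position about 10 points under the lowest Ground position. The Mbnl1 event concerned an exon of 223 bases at chr3:60528756-60528978, which is annotated in a transcript without coding sequence. Its PSI was 15.2%, 72.4% and 88.9% in Ground and 0%, 22.0% and 14.3% in Flight, from 17 to 25 reads, so the groups overlapped (adjusted p 0.0419).

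**Figure D5:**
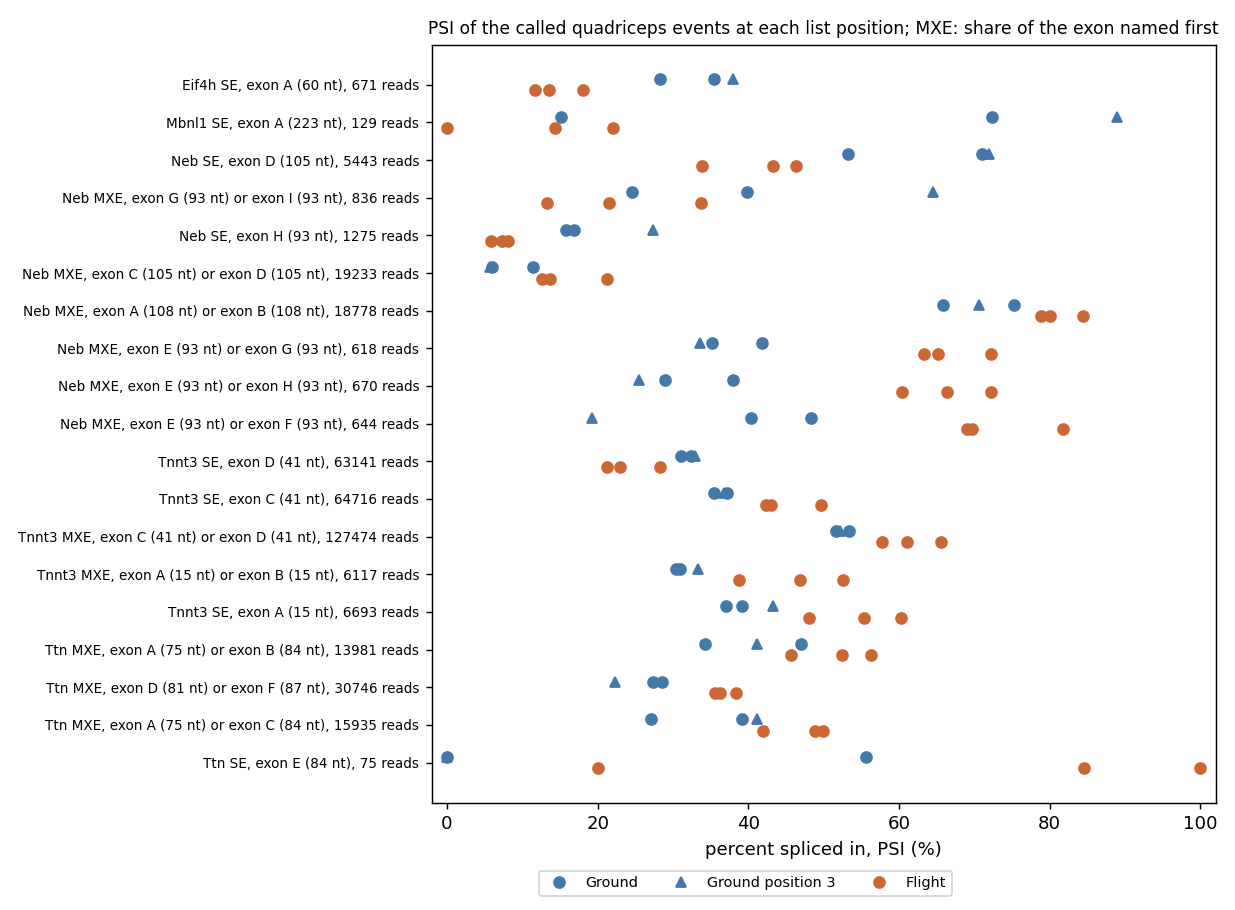
PSI in percent of the 19 called events at each list position, blue for Ground with a triangle at the third position and orange for Flight, with the exons and the total reads at the left. The Neb exon E, Tnnt3 and Eif4h events keep the colours apart, while Ttn exon E and Mbnl1 spread widely on few reads.

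Among the 21 different exons of the called events, 18 have lengths that are multiples of 3 and 18 are coding in an annotated transcript, with lengths from 15 to 223 bases. Most of the 21 lie in Neb and Ttn. The same shares over all tested events were not counted, so these numbers are not a trait of the called exons. By list, the giant and filament-bound sarcomere genes held 12 of the 19 calls in 384 events, and the fast fiber genes 5 in 44. The called share of all tested events was 0.921%. Reads were also unequal. The median event had a mean of 514 reads a position in Ttn, 454 in Tnnt3 and 200 in Neb. Over all tested events the median at a position was 30 to 44. The part that depth plays in these counts was not tested. None of 36 triad events and 4 slow fiber events was called by the quasi-binomial model, of which 3 and 0 had an unadjusted p under 0.05, and no proteasome gene had an event that passed the filters.

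Other events missed the adjusted threshold, some of them with a ΔPSI as large as those of called events. Ryr1 has an exon of 15 bases (chr7:29056234-29056248, minus strand) whose PSI was 66.0%, 67.5% and 60.3% in Ground and 72.3%, 76.0% and 73.3% in Flight, with an adjusted p of 0.171. Hnrnpd, an RNA-binding protein that controls mRNA decay and splicing, has an exon of 147 bases whose PSI was 59.1%, 62.4% and 62.5% in Ground and 43.8%, 37.1% and 44.2% in Flight, with an adjusted p of 0.271. Rbfox1, a splicing factor of muscle and brain, has an exon of 40 bases whose PSI was 5.3%, 7.7% and 3.7% in Ground and 10.5%, 17.7% and 15.2% in Flight, with an adjusted p of 0.385. In each of these the groups did not overlap, although none passed the adjusted threshold. Add1, which caps actin under the membrane, had a PSI of 77.8%, 100% and 100% in Ground and 72.3%, 59.0% and 46.9% in Flight from 31 to 56 reads, with an adjusted p of 0.12. Aplp2, a membrane protein related to the amyloid precursor, had a PSI of 86.7%, 87.0% and 97.6% in Ground and 71.1%, 70.5% and 64.0% in Flight, with an adjusted p of 0.15. Wnk1, a kinase of ion transport, had a PSI of 56.3%, 60.0% and 96.7% in Ground and 35.6%, 53.6% and 37.9% in Flight, so the third Ground position lay far above the others.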

How the data were processed

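RNA-seq of 6 quadriceps libraries was analysed. Per the labels and the study's methods, the authors estimated TPM with kallisto 0.46.0 and summed it per gene with tximport, and aligned reads of 50 bases with STAR 2.7.1a to mm10 for rMATS-turbo. The deposited expression table holds TPM for 36008 genes. The deposited splicing tables hold inclusion and skipping junction read counts as comma-joined lists. Their columns of p-values, FDR and inclusion differences hold the authors' own comparison and were not used. Depth is not carried by TPM.

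The test of log2(TPM + 1) was limma 3.58.1 (R 4.3.3, lmFit and eBayes with trend, two-sided), for genes above 5 TPM in at least 1 of 12 libraries, with Benjamini-Hochberg adjustment over all 10481. Fold changes on this scale understate those of low genes. The muscle difference took the mouse as a block. Splicing was tested with a quasi-binomial model of inclusion against skipping reads whose dispersion was moderated by limma, in place of a planned edgeR test, because the lists are not a count column. PSI was computed from the reads and effective lengths. Both tests were also run on simulated data. The splicing simulation took its spread from the dispersions of the model itself and held no outlying position. It therefore cannot show how the calls respond to the third Ground position. With 3 against 3, an exact permutation test cannot go below a p of 0.1. Each mouse gave 1 quadriceps library. The expression p-values rest on the spread between mice, with variance shared across genes. For splicing, the dispersion of an event was drawn towards a trend on reads, so its p-value reflects the event's own spread only in part. The Mbnl1 event and Ttn exon E spread widely but had dispersions of 2.35 and 2.36, against 2.79 for Neb exon E over F. Genes were named as all called, the 25 next by p with over 1.5-fold, and per list up to 4 with an unadjusted p under 0.05 and the 2 most abundant. Events were named as all called, the 12 next by p, and the best event of sarcomere, calcium and splicing genes. Members and lists were chosen with earlier results of these data known. Positions are 1-based on GRCm38 with GENCODE vM21, from which sequences and transcript lengths were read. Results for some genes are not reported here.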

Additional observations from a re-analysis of the deposited data

How the results depend on the processing

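Of the 3 genes called, only Gm43587 was called with a pseudocount of 5, without a filter on low values, with median-ratio scaling and without a variance trend (1 gene each), and a fit of all 12 libraries called 2 other genes, Gm5537 and Agpat2. Leaving out 1 library gave 1 to 4 genes for the quadriceps and 0 to 1 for the muscle difference. Apart from the replicate block described next, no other planned setting moved these counts by over 1.5 times. Same-numbered mice did not deviate together (correlations of -0.139, -0.0653 and -0.18), and with the replicate number as a block 0 genes were called by limma, 858 having an unadjusted p under 0.05. No called gene or event reversed. List medians near 0 changed sign in places, among them heat shock (-0.05 to 0.02) and stretch-responsive genes (-0.01 to 0.05) without Ground mouse M02, and glycolysis (-0.04 to 0.02) and glucose and glycogen genes (-0.07 to 0.04) without Flight mouse M12. For splicing, limma with equal weights called 0 events, SE alone 10, MXE alone 11, and leaving out 1 position gave 1 to 28. Without the third Ground position on the same 2062 events, chosen after seeing the data, 1 was called. Read weights, read minimums of 20 and 50 and no read filter called 14 to 18. No paired analysis was possible for splicing because the list positions carry no names, and DESeq2 on junction reads was not run. Depth limits the events under about 20 reads a position most, and TPM shows no depth at all.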

Other observations

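Several antioxidant genes were lower in the quadriceps of Flight mice. Of 25 antioxidant genes tested, 8 were lower at an unadjusted limma p under 0.05 and none was higher (32% against 5.18% of all genes), and 5 were lower without Ground mouse M02. Prdx2, a peroxidase of hydrogen peroxide, had 112, 115 and 114 TPM in Ground and 95.6, 74.6 and 72.0 in Flight. Gpx3, a secreted glutathione peroxidase, had 357, 264 and 288 TPM in Ground and 194, 191 and 255 in Flight. The heat shock genes were divided, with a median log2 difference of -0.05. Of 22, 6 were lower at that p, which became 3 lower and 3 higher without Flight mouse M11. The 6 were the small heat shock genes Hspb7, Hspb6 and Cryab, the mitochondrial chaperones Hspd1 and Hspe1, and Hspa5 of the endoplasmic reticulum. Hspb7, a small heat shock protein of striated muscle, had 90.2, 62.1 and 78.3 TPM in Ground and 50.3, 46.0 and 31.6 in Flight. Hsp90ab1, the most abundant member, had 870, 817 and 830 TPM in Ground and 849, 1057 and 905 in Flight. Of 19 stretch-responsive genes, 4 were lower, among them Ankrd1 with 8.29, 5.99 and 5.90 TPM in Ground and 3.24, 2.25 and 1.42 in Flight.

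Genes induced within minutes of a stimulus were higher in several cases. Of 23 immediate early genes tested, 5 were higher and 1 was lower at that p, with 3 higher without Ground mouse M02 or Flight mouse M12 and 2 without Flight mouse M20. Besides Nr4a3 they included Atf3, with 6.84, 8.16 and 5.98 TPM in Ground and 8.71, 20.5 and 16.0 in Flight, and Sik1, with 19.3, 16.9 and 14.1 in Ground and 21.5, 31.6 and 28.8 in Flight. In all of these Flight mouse M11 was the nearest to Ground. The same mouse stood apart in glucocorticoid targets, a list of which none of 15 genes had an unadjusted limma p under 0.05 with all libraries and 10 were higher at that p without M11. The median log2 difference of the list was 0.36 with M11 and 0.73 without it. Ddit4, chosen here after its values were seen, had 18.9, 11 and 6.45 TPM in Ground and 4.59, 66.3 and 37.7 in Flight. Of 8 imprinted genes tested, 3 were higher, Peg3, Grb10 and Cdkn1c, and none was lower, with 1 higher without Ground mouse M08, Flight mouse M12 or Flight mouse M20. Grb10, a brake on insulin signalling, had 23.5, 26.1 and 21.3 TPM in Ground and 27.3, 29.4 and 29.8 in Flight.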
